A study of Mus musculus with 12 samples.

Results

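The carbonic anhydrases are a family of enzymes, and 10 of its mouse genes (Car1, Car2, Car3, Car4, Car5a, Car8, Car9, Car12, Car13 and Car14) are described here as they appear in ribosome profiling of mouse liver. They were found by symbol in the deposited Ribo-seq table, where all 10 had a row among 25033 rows in all. The family was chosen because Car9 was far higher in the livers of mice fed lycopene (LYC) than in those fed no lycopene (HFD), so its members were selected on the Ribo-seq RPKM values of LYC and HFD themselves. The differences between the groups are therefore given as a description, with no p-value.

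A carbonic anhydrase speeds the conversion of CO2 and water into bicarbonate and a proton, most often with a zinc ion in its active site. The isoforms differ in where they work: in the cytosol, in mitochondria, or at the cell surface with the active site facing outward. In liver the family is known for supplying bicarbonate to mitochondrial enzymes that start the urea cycle and gluconeogenesis, and for an abundant cytosolic isoform of low activity, Car3.

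Ribo-seq sequences the short pieces of mRNA that remain inside ribosomes after RNase treatment. The livers came from male C57BL/6 mice that were 16 weeks old and had spent 8 weeks on a high-fat diet, either alone (HFD, 3 libraries) or with lycopene, a carotenoid of tomato, added to it (LYC, 3 libraries). A second table, labelled RNA-seq, holds counts for 3 libraries of each group, so there were 12 libraries in all. In the LYC samples the treatment label mentions no lycopene, and their lycopene feed is known from the sample titles and the study's methods. The labels say that RNA or footprints were pooled before the libraries were made, while the titles number them as replicates, so the spread given here is that between libraries.

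The Ribo-seq libraries differed in depth. The deposited RPKM values (reads scaled to gene length and library size) correspond to 834410 to 4405541 reads per library in HFD and to 311050 to 412116 reads in LYC. Small non-coding RNA genes took 2.57% to 4.11% of the reads in HFD and 8.69% to 13.3% in LYC. The table labelled RNA-seq was not independent of the Ribo-seq table. Each of its libraries tracked 1 Ribo-seq library of the same group, with a correlation of gene-wise deviations across 6762 genes, which are not independent replicates, of 0.92 to 0.95. In the LYC pairs 90.8% to 91.4% of the genes with 5 to 50 reads had the same number of reads in both tables to within 1 read, and in the HFD pairs 63.5% to 78.7% did. The values labelled RNA-seq are therefore not an independent measurement and are given as a description. Hepatocyte markers were present, with 9 of 9 above 0 in the Ribo-seq table and albumin (Alb) at a mean of 27134 RPKM in HFD and 17046 RPKM in LYC.

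Car9 is a transmembrane carbonic anhydrase of the cell surface, known as a gene that rises in hypoxia through the hypoxia-inducible factors (HIF). It was measured at 81.3, 59.8 and 81.4 RPKM in HFD libraries 1, 2 and 3 and at 1246, 2046 and 1472 RPKM in LYC libraries 1, 2 and 3. The lowest LYC library lay far above the highest HFD library, so the groups did not overlap. The group means were 74.1 ± 12.4 RPKM (SD, n = 3) and 1588 ± 413 RPKM (SD, n = 3), a ratio of 21.4. The values rested on 434, 516 and 133 reads in HFD and on 963, 1247 and 1188 reads in LYC. In limma's fit on log2 RPKM, scaled between libraries by the TMM method (trimmed mean of M-values) and with 1 added before the log, the log2 fold change was 4.59 ± 0.26 (SE). Among the 5516 genes that this fit tested, 25 had a larger log2 fold change than Car9.

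**Figure D1:**
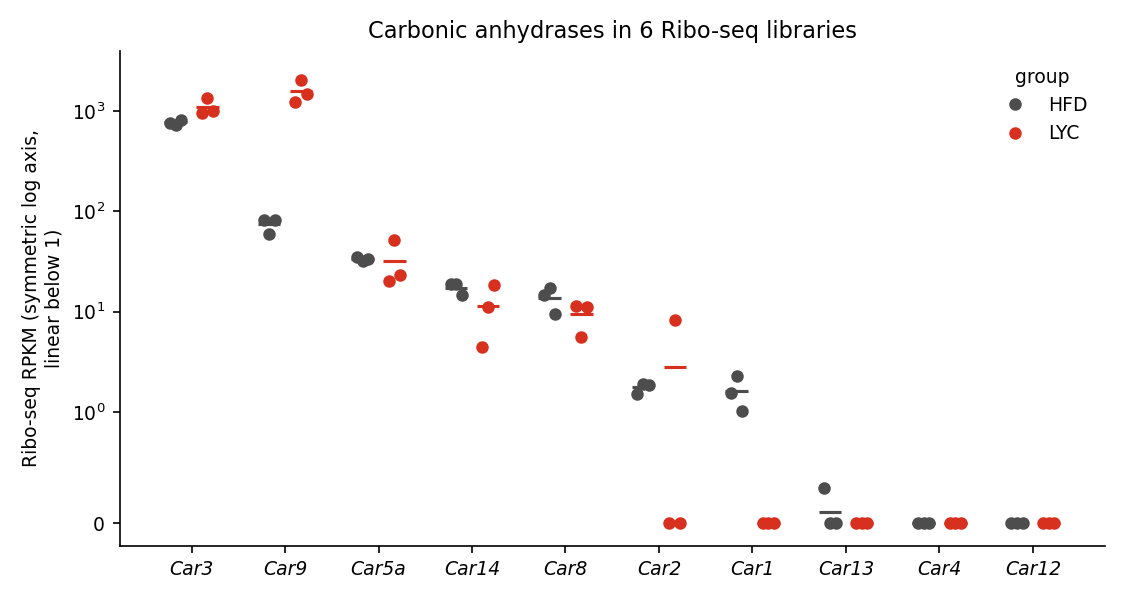
Ribo-seq RPKM of the 10 carbonic anhydrase genes (x axis, ordered by their HFD mean) on a symmetric log axis that is linear below 1. Each dot is 1 library (grey HFD, red LYC) and each bar a group mean. Car9 moves from 74.1 to 1588 RPKM, and Car4 and Car12 are at 0 in all 6 libraries.

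Calls needed a log2 fold change beyond 1 in either direction together with a two-sided unadjusted p under 0.01. Over all genes tested, 13.7% were called, 6.02% as higher and 7.63% as lower in LYC. Of the 10 carbonic anhydrases, 5 passed edgeR's filter on low reads and entered this test (Car3, Car5a, Car8, Car9 and Car14), and 1 of them, Car9, was called. Since Car9 selected the family, nothing is read from that count. The 5 genes had a median log2 fold change of 0.00, beside -0.17 over all genes tested. This median includes Car9, so nothing is read from it either. Apart from Car9, the values were 0.71 (Car3), 0.00 (Car5a), -0.33 (Car8) and -0.57 (Car14). RPKM ranges that did not overlap between the groups were seen in 38.1% of all genes tested, and of the 5 members in Car9 and Car3.

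The sequence of the Car9 mRNA is shown because 1 stretch of it matches tRNA genes. The RefSeq transcript has 11 exons and 1959 bases on chromosome 4, plus strand, from 43507026 to 43513725 (GRCm38), and the deposited values correspond to this length. Its coding sequence takes 1314 bases and its 3′ untranslated region (UTR) 615 bases. The last exon holds a stretch of 30 bases, at chr4:43513454-43513483 and 343 bases after the stop codon, that is the exact reverse complement of bases 8 to 37 of tRNA genes for cysteine. The stretch and 1 such tRNA gene, n-TCgca51 at chr11:97798906-97798977 on the minus strand, are printed below, both read 5′ to 3′ from the reference with the matching bases in capitals.
Car9 stretch: TCTGCAGTCAAATGCTCTACCACTGAGCTA
n-TCgca51: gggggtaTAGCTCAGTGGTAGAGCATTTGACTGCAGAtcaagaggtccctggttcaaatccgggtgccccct

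**Figure D2:**
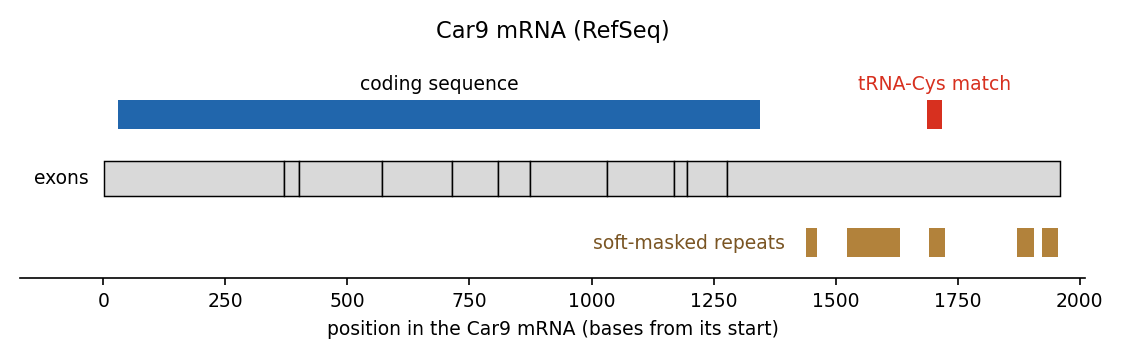
Map of the RefSeq Car9 mRNA, in bases from its start: exons (grey), coding sequence (blue), soft-masked repeats of at least 20 bases (brown) and the stretch that matches cysteine tRNA genes (red). The red stretch runs from base 1688 to base 1717, within the last exon and after the coding sequence.

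Of 403 nuclear tRNA genes in the RefSeq annotation, 7 hold the stretch without a mismatch, all of them cysteine tRNAs. With at most 1 mismatch it is found in 49 tRNA genes, 48 of which are among the 56 cysteine tRNA genes. None of the other 9 carbonic anhydrase transcripts shares as many as 16 bases in a row with a tRNA gene, in either orientation. Of the 30 bases of the stretch, 26 lie in a soft-masked repeat. Another repeat of Car9, at bases 1523 to 1632 of the mRNA, has 32 bases (1533 to 1564) in common with the microRNA hairpin Mir5098. Car8 has 28 bases in common with the same hairpin, and Car5a has 26 in common with Mir3470b. A single RefSeq transcript was scanned per gene, and genes are split here by whether that transcript is an mRNA or non-coding. Over the 19900 genes scanned by an mRNA, Car9 has the longest exact match to a tRNA gene. Next come Cpsf2 and Denr, each with 23 bases, and 38 mRNAs reach 20 bases. Among those 38, 20 were tested, of which 2 were called higher (Car9 and Denr) and 1 lower, and their median log2 fold change was -0.03, beside 6.02% higher, 7.63% lower and a median of -0.17 over all genes tested. Among 3461 genes scanned by a non-coding transcript, 14 reach 20 bases, and the 2 of them that were tested were not called. Some of these 14, such as Uros, are protein-coding genes of which a non-coding transcript was scanned. The longest match of the scan is in 1 of these, B230208H11Rik, with 81 bases in sense orientation and a log2 fold change of 0.46. This search was set up after the value of Car9 was known, so its counts are a description. The deposited tables give 1 value per gene and no positions within it, and whether counting used the strand of the reads is not given in the sources used here. The share of the Car9 reads that lies on this stretch was therefore not measured, and its part in the Car9 value was not tested.

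The count of Car9 also differed between the 2 tables, in LYC by more than that of any other member. In LYC libraries 1, 2 and 3 the table labelled RNA-seq held 1365, 1454 and 1626 Car9 reads where the Ribo-seq table had 963, 1247 and 1188, which is 1.42, 1.17 and 1.37 times as many. Over the 3330 to 3882 genes with at least 10 Ribo-seq reads in those libraries the median ratio was 1.00, and 96.5% to 97.6% of genes had a lower ratio than Car9. In the HFD pairs the ratio for Car9 was 0.86 to 0.96, beside medians of 1.02 to 1.03. For Car3 the counts in LYC differed by at most 4 reads, at 580, 641 and 637 against 579, 645 and 638, and for the other 8 members by at most 2 reads. In the HFD pairs Car3 had 1.01 to 1.03 times as many reads in the table labelled RNA-seq, Car5a 1.04 to 1.11 times, Car8 1.04 to 1.05 times and Car14 0.95 to 1.04 times.

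In the table labelled RNA-seq, where edgeR's quasi-likelihood fit with TMM factors called 16.6% of the 5921 genes tested, Car9 was the 1 member called of the 5 tested. Since Car9 selected the family and this table tracks the Ribo-seq libraries, nothing is read from that call either. Its log2 fold change there was 5.23. Scaled to CPM with the TMM factors, its values were 64.2, 112 and 106 in HFD libraries 1, 2 and 3 and 3039, 3236 and 3127 in LYC libraries 1, 2 and 3. The groups again did not overlap. The numbering of the HFD libraries differs between the tables: Ribo-seq HFD 1, 2 and 3 tracked HFD 3, 1 and 2 of the table labelled RNA-seq.

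Car3, the cytosolic isoform of low activity that is abundant in liver, muscle and fat, had the highest RPKM of the family in HFD. Its RPKM was 769.6, 735.3 and 817.5 in HFD libraries 1, 2 and 3 and 961.6, 1347.8 and 1010.9 in LYC libraries 1, 2 and 3. All 3 LYC libraries lay above all 3 HFD libraries. The mean was 774 ± 41.3 RPKM in HFD and 1107 ± 210 RPKM in LYC (SD, n = 3 each), and the log2 fold change of 0.71 ± 0.24 (SE) did not reach the fold needed for a call. In the table labelled RNA-seq its log2 fold change was 0.80 with TMM factors and -0.27 when scaled by total counts, so its direction there depended on the scaling. Over all genes of that table the median went from -0.03 to -1.11 between these scalings. Lars2, a mitochondrial leucyl-tRNA synthetase gene, held 6.68% to 15.0% of all counts in the HFD libraries and 35.9% to 40.3% in the LYC libraries.

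Car2, the cytosolic isoform of high activity, and Car1, the isoform of red blood cells, gave few reads. Car2 was at 1.52, 1.88 and 1.86 RPKM in the HFD libraries, from 8, 16 and 3 reads. In LYC it was at 0 in libraries 1 and 3 and at 8.34 RPKM in library 2, from 5 reads. The groups overlapped, and the LYC value rested on that 1 library. Car1 was at 1.55, 2.30 and 1.01 RPKM in HFD, from 5, 12 and 1 reads, and had 0 reads in each LYC library. At the HFD rate the LYC libraries would together hold 2.53 Car1 reads, and 0 reads over the group allows up to 2.24 RPKM, which is above the HFD mean of 1.62 ± 0.647 RPKM (SD, n = 3). Car1 did not pass the filter on low reads. Without that filter it was called lower, on these same few reads, so the depth of the LYC libraries leaves the size of a difference in Car1 unmeasured. Erythroid markers, listed because red blood cells carry Car1 and Car2, summed to 637 to 1441 RPKM in HFD and 849 to 992 RPKM in LYC, with 9 of the 10 that had a row above 0. None of the 3 tested was called, beside 13.7% of all genes tested. Their log2 fold changes differed in sign, at -0.48 (Hba-a2), 0.61 (Hbb-bs) and 0.92 (Alas2). The ranges of Alas2 did not overlap, as for 38.1% of all genes tested.

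Car13, another cytosolic isoform, had 2 reads in HFD library 1 (0.319 RPKM) and 0 in the other 5 libraries. Car1, Car2, Car3 and Car13 lie together on chromosome 3 between 14641727 and 14900770, with Car13 and Car1 at one end and Car3 and Car2 at the other. Car3 and Car2 are next to each other there on the plus strand, at chr3:14863538-14872381 and chr3:14886288-14900770, and their HFD means were 774 and 1.76 RPKM. No other gene of this stretch had a row used here.

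Car5a is the mitochondrial isoform of liver. Its RPKM was 34.8, 32.3 and 33.7 in HFD libraries 1, 2 and 3, the narrowest relative spread of the 5 members tested, and 20.4, 51.6 and 23.4 in LYC libraries 1, 2 and 3. LYC libraries 1 and 3 lay below and library 2 above all HFD libraries, so the groups overlapped. The means were 33.6 ± 1.25 and 31.8 ± 17.3 RPKM (SD, n = 3 each), and the log2 fold change was 0.00 ± 0.33 (SE). The LYC values rested on 10, 20 and 12 reads.

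Car14, a transmembrane isoform of the hepatocyte surface, was at 18.9, 18.7 and 14.6 RPKM in HFD and at 4.41, 11.2 and 18.3 RPKM in LYC libraries 1, 2 and 3. Its LYC libraries rested on 3, 6 and 13 reads, and the highest of them lay within the HFD range. The log2 fold change was -0.57 ± 0.44 (SE), and Car14 was not called. Without LYC library 1 the value was -0.12 and without LYC library 3 it was -1.002. Car4, which is anchored to the cell surface by a lipid, and Car12, a transmembrane isoform like Car14, had 0 reads in all 6 libraries. Over their RefSeq transcripts of 1300 and 3716 bases, 0 reads allows up to 0.290 RPKM of Car4 and 0.101 RPKM of Car12 over the HFD group, and up to 2.06 and 0.722 RPKM over the LYC group. These limits cover counting error alone.

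Car8 is a carbonic anhydrase-related protein that lacks the enzyme activity. It was at 14.6, 17.3 and 9.43 RPKM in HFD and at 11.5, 5.62 and 11.0 RPKM in LYC libraries 1, 2 and 3, and the groups overlapped. Its log2 fold change was -0.33 ± 0.41 (SE), and without LYC library 2 it was 0.062. Car8 has the longest transcript of the family, 5722 bases, so its RPKM rested on more reads (227, 435 and 45 in HFD) than that of Car14.

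Ranked by mean RPKM in HFD, the order was Car3, Car9, Car5a, Car14, Car8, Car2, Car1 and Car13. Neighbours in this order had separate ranges except Car14 with Car8 and Car2 with Car1. In LYC the order was Car9, Car3, Car5a, Car14, Car8 and Car2, with Car1 and Car13 joining Car4 and Car12 at 0. There the ranges of Car9 and Car3 overlapped, as did those of Car14 with Car8 and Car8 with Car2. The RPKM of the 10 genes summed to 867 to 959 in HFD and to 2244 to 3471 in LYC. Car9 made up 6.89% to 8.81% of that sum in HFD and 55.5% to 59.0% in LYC, while Car3 went from 83.4% to 85.2% down to 38.8% to 42.9%. Among all genes of the table Car9 ranked 746 to 1083 by RPKM in the HFD libraries and 66 to 97 in the LYC libraries.

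**Figure D3:**
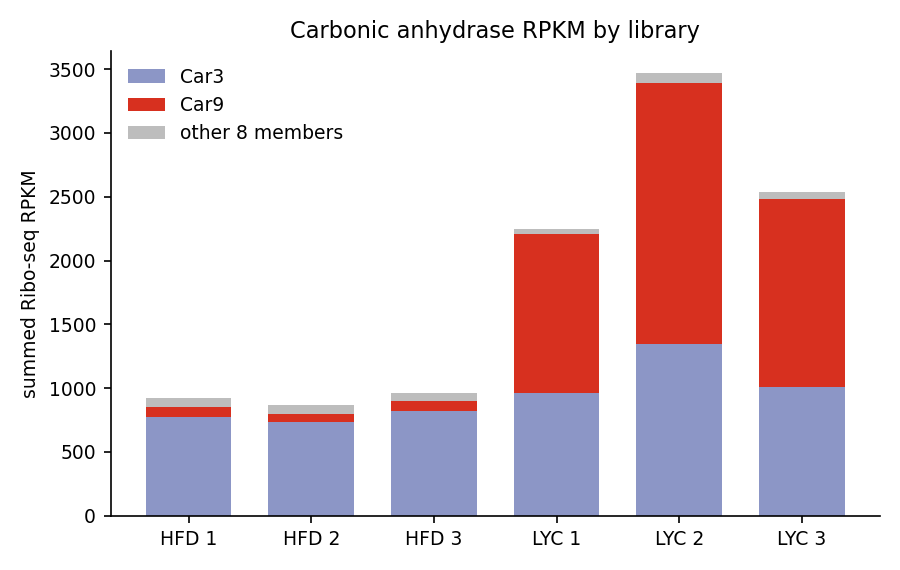
Summed Ribo-seq RPKM of the 10 carbonic anhydrase genes in each library, split into Car3 (blue), Car9 (red) and the other 8 members (grey). The sum is 867 to 959 in HFD and 2244 to 3471 in LYC, and Car9 takes 55.5% to 59.0% of it in LYC.

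The other mouse carbonic anhydrase genes with a row, 6 in all, were low or at 0. Car5b, a second mitochondrial isoform, was at 1.49, 1.18 and 0.695 RPKM in HFD and at 0.735, 0.932 and 0 RPKM in LYC. Car7 was above 0 in HFD library 2 alone (1.50 RPKM) and Car10 in HFD library 3 alone (0.359 RPKM). Car6, Car11 and Car15 were at 0 in all 6 libraries. None of the 6 passed the filter, so no difference was tested.

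**Figure D4:**
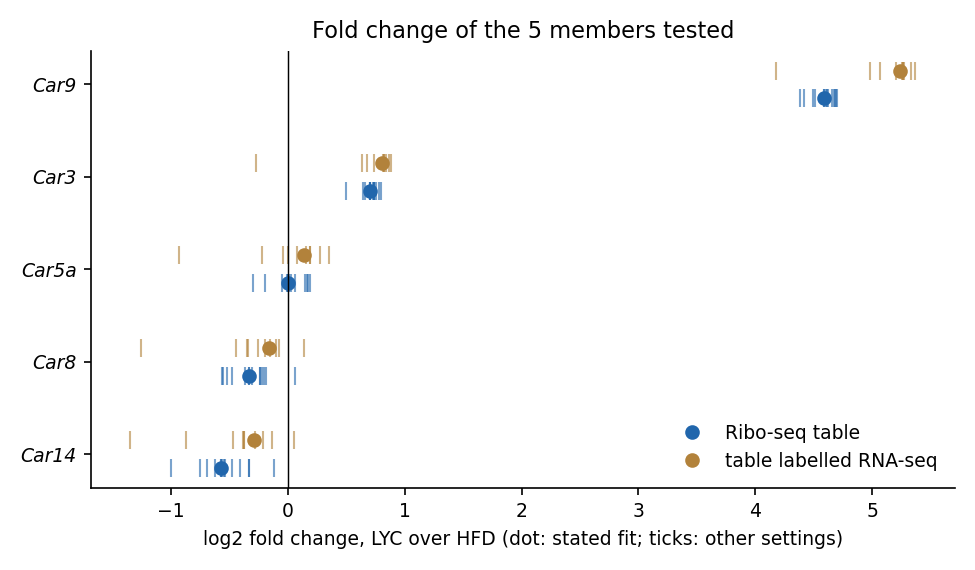
Log2 fold change of LYC over HFD for the 5 carbonic anhydrases that were tested, in the Ribo-seq table (blue) and in the table labelled RNA-seq (brown). Dots are the stated fits and ticks the other settings. For Car9 every tick lies above 4, and for Car5a the ticks fall on both sides of 0.

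Of the genes annotated over or within 20000 bases of Car9, 5 had a row, 3 were tested and 1 was called. Over all genes tested, 13.7% were called, 6.02% as higher. Arhgef39, which overlaps the start of Car9 in the annotation, was at 0.458, 0.283 and 0 RPKM in HFD and at 0 in LYC. Tpm2, a tropomyosin gene whose annotated end meets that of Car9, was at 4.20 to 6.09 RPKM in HFD and 2.41 to 3.45 RPKM in LYC and was not tested. Ccdc107 and Tln1, 11105 and 17788 bases away, had log2 fold changes of -0.71 and -0.33 and were not called. Rmrp, the RNA of the RNase MRP complex, lies 13967 bases before Car9. It was at 458, 382 and 1033 RPKM in HFD and at 9495, 7646 and 8559 RPKM in LYC, a log2 fold change of 4.12, and was called higher.

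The genes nearest to Car9 in pattern were sought among the 11 other tested genes whose log2 fold change lay within 0.5 of that of Car9. By Pearson r over the 6 libraries, given as a description because the groups were already alike by that rule, the 5 nearest were Pex13 (0.999), Scarna3a (0.990), Scarna17 (0.988), Mir148a (0.985) and Snora30 (0.985). Pex13 encodes a protein of the peroxisome membrane, and the other 4 are genes of small RNAs (2 of Cajal body RNAs, 1 microRNA and 1 small nucleolar RNA). Pex13 was at 48.1, 28.3 and 47.3 RPKM in HFD and at 727, 1297 and 1036 RPKM in LYC, so that LYC library 2 was the highest for Pex13 as it was for Car9. That library was also the highest for Scarna3a (1439, 2098 and 1254 RPKM in LYC), Car3 and Car5a. It was not the highest for Scarna17, Mir148a, Snora30, Car8 or Car14. The share of small non-coding RNA genes was also higher in every LYC library than in every HFD library, and its part in the Car9 value was not tested.

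Car9 is a known target of HIF, so other HIF target genes were set beside it. Its promoter is shown for this reason. The 60 bases before its start, chr4:43506966-43507025 on the plus strand of GRCm38 (RefSeq), are printed with the hypoxia-response motif TACGTGCA, here on the minus strand, in capitals.
Car9 promoter: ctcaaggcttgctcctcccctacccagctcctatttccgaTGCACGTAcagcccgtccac
The motif lies 20 to 13 bases before the start. Over the 250 bases before the start, searched on both strands, its core ACGTG is found in 16.6% of 32851 RefSeq promoters, TACGTG in 2.72% and the 8 letters in 0.189%, the last being the letters of Car9 itself. Of the 5 members with an entry in the promoter table (Car4, Car5a, Car9, Car12 and Car14), Car9 and Car14 hold TACGTG. A match is a description and does not show that a factor binds there.

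Of 26 HIF target genes, 25 were above 0 and 12 were tested. Of these 2 were called, beside 13.7% of all genes tested. Bnip3, a mitophagy receptor, was called higher, at 49.9, 79.1 and 30.7 RPKM in HFD and 115, 128 and 88.4 RPKM in LYC, with no overlap (38.1% of all genes tested had none) and a log2 fold change of 1.33 ± 0.34 (SE). Mxi1, an antagonist of Myc, was called lower, at 6.39, 7.57 and 8.17 RPKM in HFD and 0, 1.22 and 2.76 RPKM in LYC, with a log2 fold change of -1.93 ± 0.48 (SE). Bnip3 lost its call without HFD library 3 (log2 fold change 0.98), LYC library 1 (1.23) or LYC library 2 (1.32), and Mxi1 did not pass the filter when an HFD library was left out. Mxi1 also lost its call under DESeq2 (-2.13), without the filter (-1.93) and with a pseudocount of 0.1 (-3.24) or 5 (-0.92). The other 10 tested were not called. Their log2 fold changes were above 0 for Ldha (0.86), Pgk1 (0.66), Eno1 (0.59), Bhlhe40 (0.28) and Higd1a (0.11). They were below 0 for Egln1 (-0.24), Vegfa (-0.41), Aldoa (-0.53), Pdk1 (-0.70) and Bnip3l (-0.74). Of these 10, Ldha, Pdk1 and Bnip3l had ranges that did not overlap. The median over the 12 genes was -0.07, beside -0.17 over all genes tested, and the highest of the 12 was Bnip3. Epo was at 0. In the table labelled RNA-seq, which is not independent, 3 of 14 were called higher (Bnip3, Ldha at 1.01 and Pfkfb3 at 2.10) and 1 lower (Mxi1), beside 16.6% of all genes called there in either direction, and the median was 0.30 beside -0.03 over all genes. Pfkfb3, an enzyme that promotes glycolysis, did not pass the Ribo-seq filter, where it was at 1.46, 1.81 and 1.43 RPKM in HFD and at 6.06, 6.41 and 3.87 RPKM in LYC, with no overlap.

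Bicarbonate-using carboxylases, 8 genes that take up the product of the reaction, were all tested, and 1 was called, beside 13.7% of all genes tested. Mccc1, a subunit of the carboxylase of leucine breakdown, was called higher, at 13.4, 15.8 and 6.43 RPKM in HFD and 23.8, 35.6 and 25.2 RPKM in LYC, with no overlap and a log2 fold change of 1.44 ± 0.36 (SE). It lost its call without HFD library 3 (1.07). The other 7 were not called. Cps1, which starts the urea cycle in mitochondria and uses the bicarbonate that Car5a supplies, was at 684, 708 and 715 RPKM in HFD and at 1281, 1705 and 808 RPKM in LYC. Its groups did not overlap, as for 38.1% of all genes tested, and its log2 fold change of 0.99 ± 0.30 (SE) was just under the fold needed for a call. The median of the 8 was 0.28, beside -0.17 over all genes tested. In the table labelled RNA-seq 3 of the 8 were called higher (Mccc1, Pcca and Cps1), with a median of 0.40, beside 16.6% called in either direction and a median of -0.03 over all genes of that table.

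Of 18 genes of bicarbonate and proton transport, all above 0 and 7 tested, 2 were called lower and none higher, beside 7.63% and 6.02% over all genes tested. Slc26a1, an anion exchanger, was at 51.4, 70.6 and 59.5 RPKM in HFD and at 16.9, 14.3 and 28.9 RPKM in LYC (log2 fold change -1.40 ± 0.33, SE). Slc16a1, a lactate and proton cotransporter, was at 22.4, 27.5 and 22.7 RPKM in HFD and at 4.58, 1.45 and 11.0 RPKM in LYC (log2 fold change -2.01 ± 0.54, SE). Neither gene's groups overlapped, as for 38.1% of all genes tested. Both lost their call without HFD library 2 (-1.31 and -1.93), and Slc16a1 also without HFD library 3 (-2.05) or LYC library 1 (-2.08). The value of Slc16a1 was -1.34 without LYC library 2 and -2.59 without LYC library 3. Slc4a4, the sodium bicarbonate cotransporter, was not called (log2 fold change -1.14 ± 0.38, SE), and the median of the 7 genes was -1.14, beside -0.17 over all genes tested. In the table labelled RNA-seq 3 of the 7 were called lower (Slc26a1, Slc16a1 and Slc4a4), with a median of -0.50, beside the same 16.6% and -0.03.

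**Figure D5:**
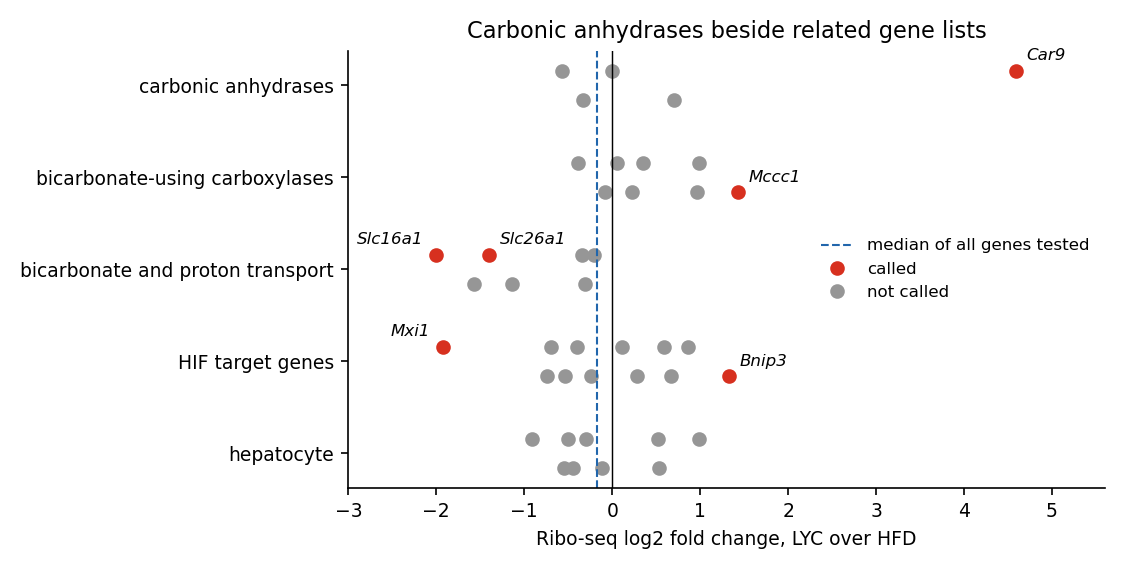
Ribo-seq log2 fold change of LYC over HFD for tested genes of the carbonic anhydrases and of 4 gene lists. Each dot is a gene (red called, grey not called), vertical offsets serve legibility, and the dashed line is the median of all genes tested, -0.17. Car9 lies at 4.59, away from every other gene shown.

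Other liver cells and tissues that hold carbonic anhydrases were checked by marker sums. Over all genes tested 13.7% were called, 7.63% as lower. Cholangiocyte markers, 9 of 9 above 0, summed to 19.2 to 30.3 RPKM in HFD and 2.89 to 13.9 RPKM in LYC, and Spp1, the 1 tested, was called lower. Spp1 alone was at 20.3, 20.1 and 10.3 RPKM in HFD and at 1.67, 8.48 and 4.80 RPKM in LYC. Krt19, Krt7, Epcam, Cftr, Muc1 and Tspan8 were at 1.62 RPKM or less in HFD and at 0 in LYC. In the LYC libraries 1 read on a gene of 1 kb gives 2.43 to 3.21 RPKM. Adipocyte markers, 4 of 7 above 0 (Adipoq, Fabp4, Cfd and Pparg) and Plin1, Lep and Retn at 0, summed to 13.6 to 22.4 and 16.0 to 38.5 RPKM, and none was tested. Skeletal muscle markers, 9 of 9 above 0, summed to 43.9 to 107 and 21.0 to 53.5 RPKM. Endothelial markers, 8 of 8 above 0, summed to 75.1 to 110 and 39.6 to 130 RPKM, with Pecam1 called lower of 6 tested, and Kupffer cell markers, 7 of 7 above 0, to 113 to 153 and 98.9 to 162 RPKM with none of 5 called. In bulk liver, fewer cells of a type and less RNA per cell cannot be told apart, and the part of these cells in the values of the carbonic anhydrases was not tested.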

How the data were processed

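The authors cleaned reads (cutadapt, Bowtie2), mapped them by STAR against mm10 and counted genes by FANSE2. They deposited RPKM values per gene for Ribo-seq, and counts with RPKM values for the libraries labelled RNA-seq. Tool versions, annotation release and strand setting are not given in the sources used here. Whole Ribo-seq reads were recovered from the steps between the deposited RPKM values, at the length implied by the second table for 11129 of 15749 genes above 0 and at a fitted length for 4619. At the second table's lengths, 71.9% to 72.4% of the deposited RPKM values above 0 in a library came out whole, meaning within 0.02 read of a whole number (or within 2e-05 of the reads, if more). A fitted length had to give whole reads to within 0.002 read (or the same share) in every library above 0. The tests leave out 4 rows with duplicate names, and 26 names had been turned into dates.

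LYC was compared with HFD by limma 3.58.1 (trend option) on log2(x + 1), where x is the RPKM value divided by a TMM factor, for genes kept by edgeR's filterByExpr. The pseudocount of 1 understates the change of low genes. The deposited counts were fitted with edgeR 4.0.16 (quasi-likelihood, TMM). DESeq2 1.42.0, other scalings, pseudocounts and filters, a replicate block and leaving out each library were alternatives. The limma fit and the edgeR and DESeq2 fits with their own scaling were tested on simulated data with known changes. Software also included R 4.3.3. Where a group had 0 reads, the limit is 3 reads over the group.

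Members and lists were chosen with earlier results of these data known. The genes named are all 10 members, the other carbonic anhydrases with a row, called genes of each list (at most 4), genes next to the members, and the 5 nearest to Car9 in pattern. Others (Alb, Lars2, Cpsf2, Denr and list genes that were not called) were chosen after their values were seen. Transcripts, promoters and tRNA genes are from RefSeq GRCm38.p6. Of the genes with a row, 23361 had a RefSeq transcript, 14416 of them at the table's length, and matches of at least 16 bases were searched.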

Additional observations from a re-analysis of the deposited data

How the results depend on the processing

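Car9 selected the family, so its calls under the alternatives are not read as support. Its log2 fold change was 4.39 to 4.69 and 4.17 to 5.27 under other settings, and 4.42 to 4.70 and 4.98 to 5.37 when libraries were left out. Replicate numbers did not pair the libraries: the correlations of same-numbered deviations were 0.12, 0.01 and 0.01. With a replicate block the log2 fold change of Car9 was 4.59, 1 member was called and the 753 calls over all genes became 711, and in the table labelled RNA-seq 985 became 859. The number of members called was 1 when libraries were left out. Without the filter it was 2 (Car1 joined, called lower, from 18 reads in HFD and 0 in LYC), and it was 3 in the table labelled RNA-seq with total library size, where Car8 (-1.26) and Car14 (-1.35) joined and Car3 (-0.27) and Car5a (-0.93) turned in sign. That scaling moved the all-gene calls there to 134 higher and 2760 lower, from 551 and 434. For Ribo-seq, total library size gave 226 higher and 662 lower, from 332 and 421, and turned Car5a to -0.20. Car5a also turned, to -0.0008 with a pseudocount of 0.1 in Ribo-seq and to -0.039 without the filter on counts in the other table. Leaving out libraries, Car5a ran from -0.30 to 0.19 in Ribo-seq and from -0.22 to 0.35 in the other table. Car8 ran from -0.57 to 0.062 and from -0.45 to 0.14, positive without LYC library 2, and Car14 from -1.002 to -0.12 in Ribo-seq and from -0.87 to 0.052 in the table labelled RNA-seq, positive there without LYC library 1. The cause was not tested. The 2 calls of HIF target genes became 1 with a pseudocount of 0.1 or 5 and 0 to 4 when libraries were left out, 0 without HFD library 3 and 4 without LYC library 3. Bnip3 lost its call without HFD library 3 (0.98), LYC library 1 or LYC library 2, and Mxi1 under DESeq2, without the filter and with either other pseudocount. Mccc1 lost its call without HFD library 3 (1.07), and Slc26a1 and Slc16a1 theirs without HFD library 2 (-1.31 and -1.93). Slc16a1 also lost it without the filter, HFD library 3 or LYC library 1. Carboxylase calls ran from 0 to 3 and transport calls from 0 to 3. Settings for the gene lists were added after the data were seen. Depth limits Car1, Car2, Car4, Car12 and Car13, which did not enter the tests.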
